A study of Mus musculus with 12 samples.

Results

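The potassium channel genes of the mouse were examined in ribosome-bound and remaining RNA of the arcuate nucleus. All genes whose symbol begins with Kcn were taken, together with Abcc8, and antisense, opposite-strand and clone-named transcripts were left out by their symbol endings. This gave 95 of 19878 genes in the count table, in 15 families, and 1 further symbol beginning with Kcn, Kcnq1ot1, was left out. All 95 had an exonic length in the annotation, 60 had a count in all 12 libraries, and 2 (Kcnk16 and Kcnmb3) had none.

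The libraries came from Pomc-CreERT2; Rosa26-eGFPL10a mice on a C57BL/6 background, in which tamoxifen lets a Cre driven from Pomc switch on the ribosomal protein L10a fused to eGFP. Arcuate tissue was lysed, ribosomes were captured with beads against GFP (pull-down), and the lysate left behind was kept (supernatant). The 4 groups were P60 pull-down, P60 supernatant, P12 pull-down and P12 supernatant, where P is the postnatal day, with 3 replicates in each. All groups carried the same Cre and tag alleles, so the supernatant of the same age was the comparison for each pull-down, and supernatants still held RNA of the tagged cells. By the study's methods, each age had its own daily course of tamoxifen, which ended in the days before collection. The time from the last dose to collection was longer at P60 than at P12. In comparisons between the ages, this time cannot be told apart from age. Whether mice were pooled for a replicate is not given in the sources used here, nor is their sex.

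Potassium channels let potassium ions leave the cell and so set the resting potential, the shape of the action potential and the firing rate of neurons. The KATP channel, built from the pore subunit encoded by Kcnj11 or Kcnj8 and the sulfonylurea receptor encoded by Abcc8 or Abcc9, closes when ATP is high, and it couples glucose to firing in POMC neurons. G protein-gated inward rectifiers (GIRK channels) open on the signals of opioid, GABA-B and other receptors and quieten the cell, and the Kv7 subunits carry the M-current, which acetylcholine and other transmitters shut off.

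Total counts were 10791980 to 18774445 in the P60 pull-downs, 16143825 to 22422476 in the P60 supernatants, 6305778 to 19814679 in the P12 pull-downs and 23785154 to 35249290 in the P12 supernatants, and the lowest total was that of P12 pull-down 1. Pomc read 2784 to 4771 CPM in P60 pull-downs against 16.7 to 55.3 CPM in P60 supernatants, and 11 to 96.2 CPM in P12 pull-downs against 6.99 to 8.84 CPM in P12 supernatants, where CPM is the count scaled to library size with TMM factors over all 12 libraries. Of 4 POMC neuron markers (Pomc, Cartpt, Prdm12 and Tbx3), 4 were higher in the pull-down at P60, but only Pomc was at P12. Prdm12 stood at 0.355 to 3.95 CPM in P12 pull-downs against 6.03 to 7.48 CPM in P12 supernatants. The GFP tag was higher in the pull-down at both ages. The label of the P12 pull-downs as POMC cells thus rests on Pomc and the tag, and all 4 markers were lower in them than in the P60 pull-downs. Some markers of glia were higher in the P12 pull-downs than in their supernatants. These were 2 of 8 astrocyte markers (Gfap, log2 fold change 1.48, and Aldoc, 0.60), 1 of 4 oligodendrocyte precursor markers (Cspg4, 2.24) and 1 of 5 tanycyte and ependymal markers (Vim, 1.58), while 2 of 8 oligodendrocyte markers were lower. The summed astrocyte level was 1374 to 1541 CPM in P12 pull-downs against 1015 to 1057 CPM in P12 supernatants, and the summed tanycyte and ependymal level was 170 to 188 CPM in P12 pull-downs against 66.9 to 76.2 CPM in P12 supernatants. The median log2 fold change was -0.20 over the 8 astrocyte markers and -0.35 over the 4 precursor markers. Over the 5 tanycyte and ependymal markers it was 0.79. The part of these cells in the P12 values of the members was not tested.

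Per kilobase of exon, which allows genes to be compared, the most abundant member at P60 was Kcnab2, a cytoplasmic beta subunit of Kv1 channels, with 51.8 ± 6.21 CPM per kb in P60 pull-downs and 51.6 ± 2.14 CPM per kb in P60 supernatants (SD, n = 3 each). The next 4 in P60 pull-downs were Kcnc1 (24 CPM per kb), a Kv3 pore subunit of fast-firing cells, Kcnip1 (22.5), a calcium-binding partner of Kv4 channels, Kcna2 (20.5), a Kv1 pore subunit of axons, and Kcnab3 (18.0), a further Kv1 beta subunit. In P60 supernatants Kcna1, the Kv1 subunit that pairs with Kcna2 at axons, came second at 25 CPM per kb, followed by Kcnc1 (24.5), Kcna2 (21.7) and Kcnip1 (21.6). In P12 pull-downs the order was Kcnab2 (33.6), Kcnip1 (26.6), Kcnc4 (22.3), Kcnmb4 (20.4) and Kcnc1 (19.98), all in CPM per kb. In P12 supernatants it was Kcnip1 (35.6), Kcnab2 (27.9), Kcnc4 (22.3), Kcnc1 (20.2) and Kcnmb4 (17.7 CPM per kb). Kcnc4 encodes another Kv3 subunit, and Kcnmb4 a neuronal beta subunit of the BK channel. Of the exonic length of Kcnmb4, 75.3% is shared with Kcnmb4os1 and Kcnmb4os2, opposite-strand transcripts by their symbols. Its reads cannot be told apart from theirs without the strand setting. Neighbours in these orders after the first often lay within 1 SD of each other, for instance Kcnc1 (24 ± 1.67) and Kcnip1 (22.5 ± 1.04 CPM per kb, SD, n = 3 each) in P60 pull-downs.

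**Figure D1:**
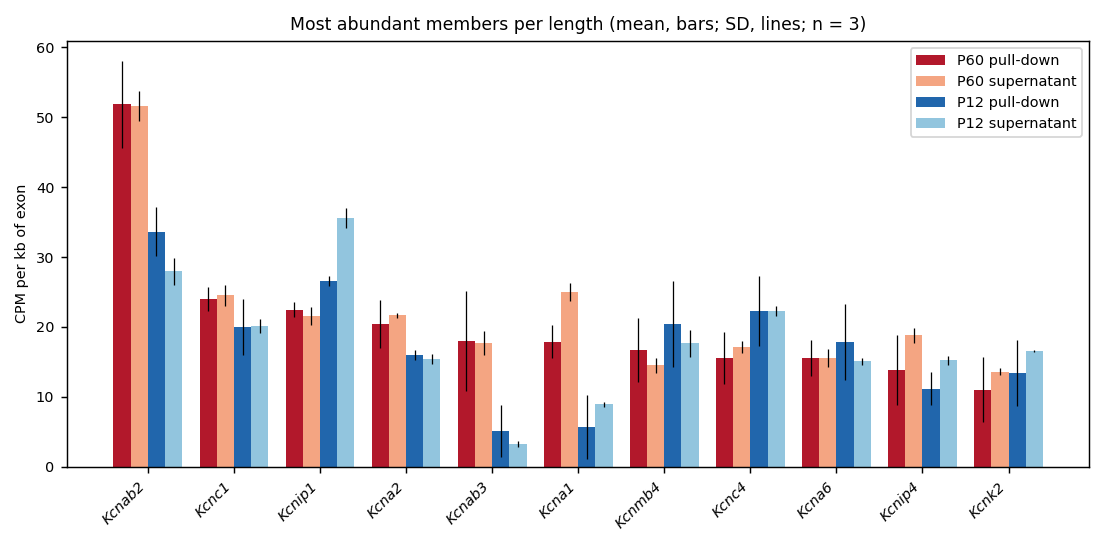
Mean level in CPM per kb of exon (bars) with SD (lines, n = 3) of the 11 members that were among the most abundant in at least 1 group; colours give P60 pull-down, P60 supernatant, P12 pull-down and P12 supernatant. Kcnab2 stands highest at P60 in both fractions, and Kcnip1 highest in the P12 supernatants at 35.6 CPM per kb.

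Summed over all 95 members, the level was 2464 to 2529 CPM in P60 pull-downs against 2647 to 2764 CPM in P60 supernatants, and 1934 to 2349 CPM in P12 pull-downs against 2224 to 2363 CPM in P12 supernatants. The P60 ranges did not overlap and the P12 ranges did. Over all genes tested, the median log2 fold change of pull-down over supernatant was also below 0, at -0.10 at P60 and -0.27 at P12. The 5 most abundant members by CPM made up 36.5% of the sum in P60 pull-downs, 34.4% in P60 supernatants, 34.3% in P12 pull-downs and 31.2% in P12 supernatants. At least 10 CPM were reached by 47, 47, 43 and 48 members in P60 pull-downs, P60 supernatants, P12 pull-downs and P12 supernatants, in that order. Of the 95 members, 80 had enough counts to be tested in at least 1 comparison. The other 15 were Kcna7, Kcna10, Kcne1, Kcne2, Kcne3, Kcnj1, Kcnk7, Kcnk15, Kcnk16, Kcnk18, Kcnmb3, Kcnn4, Kcnq1, Kcnrg and Kcnv2, and none of them exceeded 1.43 CPM in any library.

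At P60, the pull-down was compared with its supernatant to ask which channel genes were enriched on the ribosomes of POMC cells. Of 77 members tested, only Kcna5 was higher in the pull-down, and Kcnj10 and Kcnc2 were lower, at an adjusted p under 0.05 (Benjamini-Hochberg over all genes tested). Over all 14444 genes tested, 7.11% were called higher and 4.53% lower, against 1.30% and 2.60% of the members. The median log2 fold change was -0.21 over the members and -0.10 over all genes, and 54 of the 77 had a negative value.

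Kcna5, which encodes a Kv1 pore subunit of delayed rectifier currents known from heart, vessels and microglia, read 54.4, 29.7 and 32.9 CPM in P60 pull-downs against 16.3, 12.0 and 14.8 CPM in P60 supernatants. The lowest pull-down lay above the highest supernatant. The log2 fold change was 1.43 ± 0.26 (SE; adjusted p = 8.94e-05), and the call held without each pair in turn (1.25 to 1.55). With the spread estimated over all 12 libraries in 1 fit, the calls of Kcna5, Kcnj10 and Kcnc2 were all lost, at adjusted p of 0.269, 0.0541 and 0.167 with folds of 1.41, -0.96 and -0.60. Its neighbours on chromosome 6, both Kv1 genes too, were not called. In P60 pull-downs Kcna1 averaged 79.2 ± 10.3 CPM against 110 ± 5.81 CPM in P60 supernatants (log2 fold change -0.46 ± 0.16, adjusted p = 0.0563). Kcna6 averaged 90.9 ± 14.7 CPM in P60 pull-downs and 90.7 ± 7.53 CPM in P60 supernatants (SD, n = 3 each), though 40.4% of its exonic length overlaps a non-coding gene.

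Since Kcna5 is known from vessels and microglia, markers of both were read beside it. The summed level of 8 endothelial and pericyte genes was 33.7 to 60.7 CPM in P60 pull-downs against 24.7 to 29.0 CPM in P60 supernatants, and 1 of the 8, Flt1, was called higher (log2 fold change 2.36 ± 0.58, adjusted p = 0.00417). Over the 8, the median log2 fold change was -0.17, with values from -3.53 to 2.36. Rgs5 read 0.23 to 2.93 CPM in P60 pull-downs against 4.41 to 5.99 CPM in P60 supernatants. Pecam1 was at 0 CPM in 2 of the 3 P60 pull-downs. The summed level of 7 microglial genes was 10.7 to 22.5 CPM in P60 pull-downs against 20.8 to 24.8 CPM in P60 supernatants, and none of the 7 was called. The part of these cells in the Kcna5 value was not tested.

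Kcnj10, the inward rectifier with which astrocytes and oligodendrocytes buffer potassium, read 25.6, 27.9 and 41.9 CPM in P60 pull-downs against 59.2, 63.8 and 58.9 CPM in P60 supernatants. The groups did not overlap, the log2 fold change was -0.94 ± 0.21 (adjusted p = 0.00147), and the call held without each pair in turn (-1.18 to -0.82). Its partner in glia, Kcnj16, read 3.27, 3.99 and 1.96 CPM in P60 pull-downs against 7.42, 7.53 and 9.48 CPM in P60 supernatants (log2 fold change -1.41 ± 0.64, adjusted p = 0.173). The groups of Kcnj16 did not overlap either, but its test was not passed. Markers of glia were read beside them, and most of those called were lower. Of 8 oligodendrocyte genes, 6 were called lower and 0 higher, with a sum of 1142 to 1296 CPM in P60 pull-downs against 1936 to 2042 CPM in P60 supernatants, and of 8 astrocyte genes 4 were called lower and 0 higher, with a sum of 876 to 1081 CPM in P60 pull-downs against 1060 to 1156 CPM in P60 supernatants. Of 4 precursor markers, 1 was called lower and 0 higher. Of 5 tanycyte and ependymal markers, 1 was called higher and 0 lower. Their sum was 78.8 to 102 CPM in P60 pull-downs against 58.7 to 63.8 CPM in P60 supernatants. The part of these cells in the Kcnj10 value was not tested. By the study's pairing, both fractions of a pair come from the same lysate and so from the same cells. In the comparisons between ages below, fewer cells of a type and less RNA per cell cannot be told apart.

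Kcnc2, a Kv3 subunit that lets fast-spiking interneurons repolarise quickly, read 44.7, 56.0 and 54.8 CPM in P60 pull-downs against 77.7, 74.7 and 84.0 CPM in P60 supernatants. All 3 pairs went the same way, with a log2 fold change of -0.58 ± 0.18 (adjusted p = 0.0265). The call was lost without pair 1 (-0.49, adjusted p = 0.127) and without pair 3 (-0.58, adjusted p = 0.194). The Kv3 genes Kcnc1 and Kcnc4 had log2 fold changes of -0.005 and -0.14, neither called.

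The upstream sequences of Kcna5 and Kcnj10 are shown, as the pair that moved in opposite directions between the P60 fractions and kept their calls without any 1 pair. They are the 250 bases before the RefSeq transcription start in GRCm38.p6, at chr6:126535556-126535805 on the minus strand for Kcna5 and at chr1:172340960-172341209 on the plus strand for Kcnj10, and capitals mark the GC box letters GGGCGG on either strand.
Kcna5: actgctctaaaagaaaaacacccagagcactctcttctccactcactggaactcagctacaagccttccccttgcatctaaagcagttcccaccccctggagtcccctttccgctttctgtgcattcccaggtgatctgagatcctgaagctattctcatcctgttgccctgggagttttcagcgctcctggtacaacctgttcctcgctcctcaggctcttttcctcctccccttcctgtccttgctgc
Kcnj10: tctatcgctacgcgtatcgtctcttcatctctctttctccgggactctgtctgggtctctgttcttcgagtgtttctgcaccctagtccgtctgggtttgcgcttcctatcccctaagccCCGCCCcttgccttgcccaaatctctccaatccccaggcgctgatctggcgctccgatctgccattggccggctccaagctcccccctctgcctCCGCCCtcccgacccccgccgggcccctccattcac
The Kcnj10 stretch holds 2 GC boxes, has 62.0% G or C and 17 CG pairs, while that of Kcna5 holds 0 GC boxes, with 53.2% G or C and 3 CG pairs. The TATA box letters TATAAA, searched on both strands, occur in neither. Among 32851 promoters of the same length, 32.7% hold GGGCGG and 12.4% hold TATAAA, and the median was 52.4% G or C with 6 CG pairs. The gene model used for the exons of Kcna5 begins at chromosome 6, 126535412, inside the RefSeq start, so the window printed is not the stretch just before that model. These are descriptions of letters and not of bound sites.

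**Figure D2:**
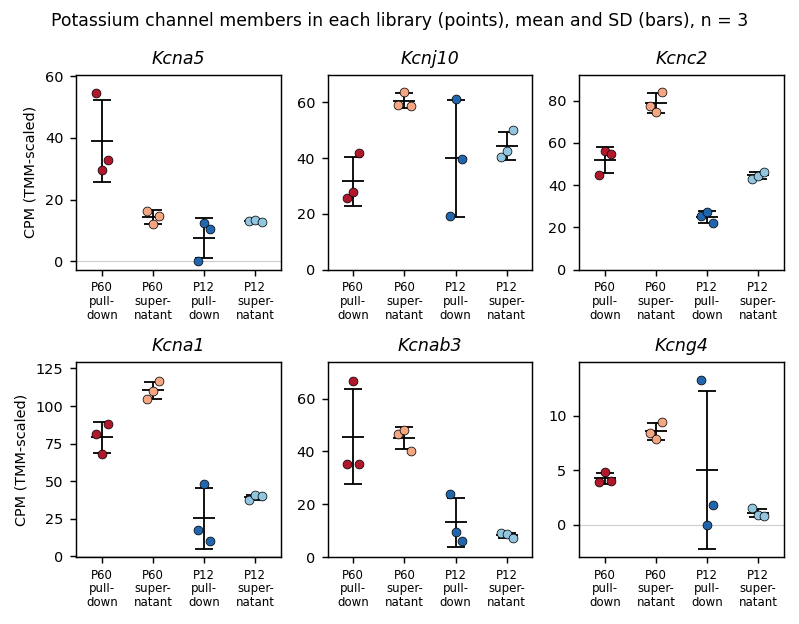
Level in each library (points, CPM scaled by TMM) of 6 members called in at least 1 comparison, with the mean and SD of 3 replicates (bars), for P60 pull-down, P60 supernatant, P12 pull-down and P12 supernatant from left to right. Kcna5 is above its supernatant at P60, Kcnj10, Kcnc2 and Kcna1 are below theirs, and P12 pull-down 1 stands apart for Kcng4 at 13.3 CPM.

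The KATP subunits were read next. Kcnj11 and Abcc8 lie next to each other on chromosome 7 (GRCm38, 46093953 to 46100764 and 46104523 to 46180033, both minus strand). Kcnj11 read 11.3, 6.62 and 14.8 CPM in P60 pull-downs against 20.9, 19.9 and 17.03 CPM in P60 supernatants, so that each pull-down lay below each supernatant. The log2 fold change was -0.86 ± 0.34 and did not pass the test (adjusted p = 0.103). Abcc8 read 4.98, 19.0 and 12.7 CPM in P60 pull-downs against 7.32, 5.34 and 5.11 CPM in P60 supernatants, higher in 2 of 3 pairs, with a log2 fold change of 0.92 ± 0.50 (adjusted p = 0.268). Without pair 1, where it was lower in the pull-down, the log2 fold change was 1.60 (adjusted p = 0.0176). Whether the pore and the receptor gene differed from each other was not tested.

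At P12, Kcnj11 read 12.2, 6.33 and 5.17 CPM in pull-downs against 13.02, 11.8 and 13.7 CPM in supernatants (log2 fold change -0.80 ± 0.73, adjusted p = 0.625). Abcc8 read 2.48, 24.9 and 8.37 CPM in P12 pull-downs against 6.96, 7.11 and 8.06 CPM in P12 supernatants, so that the pull-downs lay on both sides of the supernatants (log2 fold change 0.15 ± 0.89, adjusted p = 0.947). Kcnj8, the pore subunit of the vascular KATP channel and a pericyte gene, had 0, 0 and 2 counts in P60 pull-downs against 9, 16 and 7 counts in P60 supernatants, too few to be tested at that age. It had 68, 41 and 0 counts in P12 pull-downs against 4, 25 and 19 counts in P12 supernatants. P12 pull-down 1 thus held 12.1 CPM of Kcnj8 and also the highest Abcc9, its vascular receptor partner, at 19.2 CPM, while P12 pull-down 3 held 0 and 1.19 CPM of them. At P60 Abcc9 read 2.59, 5.69 and 4.12 CPM in pull-downs against 1.18, 1.25 and 0.795 CPM in supernatants. The groups did not overlap, but Abcc9 was not called. The fitted log2 fold change of Kcnj8 at P12 was 1.78 ± 2.80 (adjusted p = 0.781) with all libraries and -0.96 without pair 1.

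Of the 4 GIRK subunits none was called between fractions at either age in edgeR with TMM scaling. The fit over all 12 libraries called Kcnj3 lower at P12 (log2 fold change -1.45, adjusted p = 0.0177), and scaling by library size alone called Kcnj6 lower at P60 (-0.68, adjusted p = 0.0407). At P60 Kcnj3, a subunit found in most neuronal GIRK channels, read 36.8, 26.5 and 27.6 CPM in pull-downs against 25.6, 24.9 and 28.5 CPM in supernatants, and the groups overlapped. At P12 it read 13.1, 5.79 and 4.87 CPM in pull-downs against 22.3, 19.2 and 18.1 CPM in supernatants, each pull-down below each supernatant. The log2 fold change was 0.22 ± 0.25 at P60 (adjusted p = 0.662) and -1.47 ± 0.61 at P12 (adjusted p = 0.199). The difference of enrichment between the ages was 1.65 ± 0.55 (adjusted p = 0.194), and it passed the test with DESeq2 (1.65, adjusted p = 0.0487) and without P12 pair 1 (1.99, adjusted p = 0.0268). Of the exonic length of Kcnj3, 31.1% overlaps a non-coding gene, from which its reads cannot be told apart without the strand setting.

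Kcnj6, the other common pore subunit of neuronal GIRK channels, averaged 27.7 ± 3.59 CPM in P60 pull-downs and 38.4 ± 0.313 CPM in P60 supernatants, with a log2 fold change of -0.45 ± 0.23 (adjusted p = 0.23). At P12 it averaged 30 ± 10.2 CPM in pull-downs and 29.2 ± 2.68 CPM in supernatants. Kcnj9 averaged 48.9 ± 5.54 CPM in P60 pull-downs, 60.2 ± 7.57 CPM in P60 supernatants, 33.4 ± 16.7 CPM in P12 pull-downs and 32.6 ± 0.657 CPM in P12 supernatants. Kcnj5, better known from the heart, averaged 5.78 ± 3.32 CPM in P60 pull-downs, 8.79 ± 1.53 CPM in P60 supernatants, 5.78 ± 3.69 CPM in P12 pull-downs and 9.27 ± 0.377 CPM in P12 supernatants (SD, n = 3 each).

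The M-current subunit genes Kcnq3 and Kcnq5 were not called between fractions in edgeR with TMM scaling either. Scaling by library size alone called Kcnq5 lower at P60 (log2 fold change -0.995, adjusted p = 0.0119) and Kcnq3 lower at P12 (-1.04, adjusted p = 0.0388), where it moved the median of all genes by -0.225 at P60 and -0.348 at P12. Kcnq3 read 18.4, 45.1 and 50.1 CPM in P60 pull-downs against 39.4, 36.6 and 44.6 CPM in P60 supernatants, with P60 pull-down 1 far below the other pull-downs. At P12 Kcnq3 read 20.4, 36.8 and 34.2 CPM in pull-downs against 42.1, 48.4 and 53.01 CPM in supernatants, each pull-down below each supernatant, with a log2 fold change of -0.69 ± 0.32 (adjusted p = 0.256). Kcnq5 read 13.4, 12.4 and 18.7 CPM in P60 pull-downs against 29.6, 23.7 and 23.2 CPM in P60 supernatants, each pull-down below each supernatant, with a log2 fold change of -0.77 ± 0.29 (adjusted p = 0.0828). In the P12 pull-downs Kcnq5 overlapped its supernatants (-0.08 ± 0.38, adjusted p = 0.936).

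**Figure D3:**
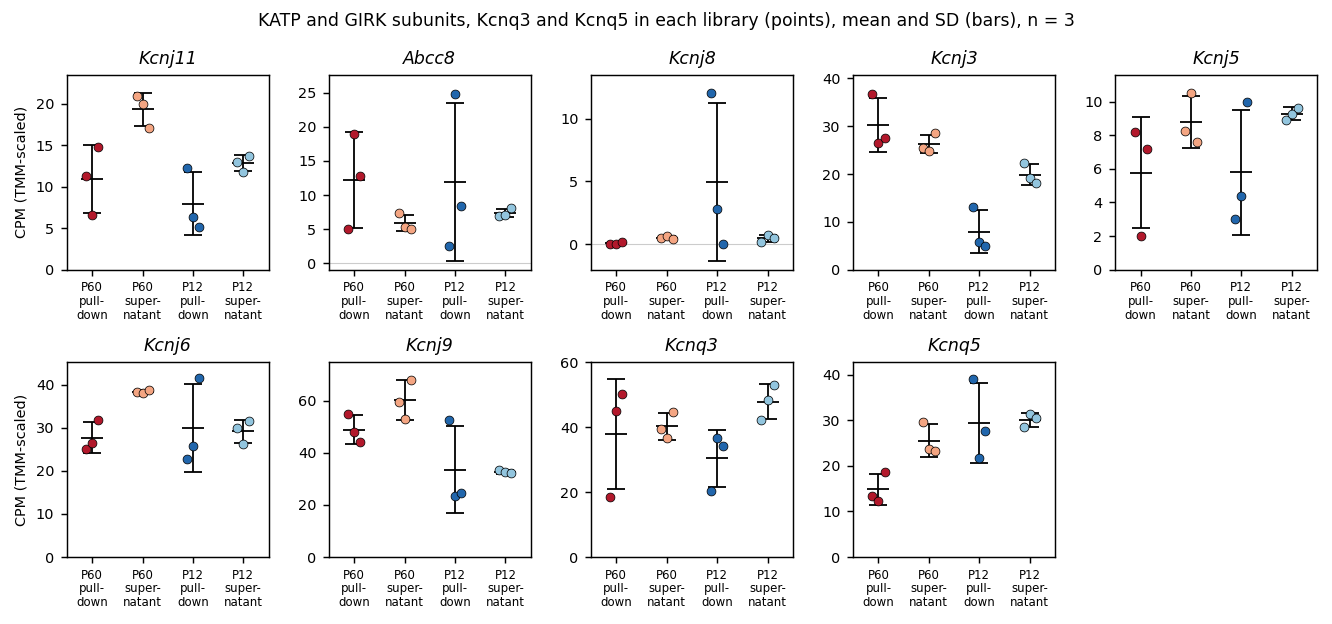
Level in each library (points, CPM scaled by TMM) of the KATP and GIRK subunits and of Kcnq3 and Kcnq5, with mean and SD of 3 replicates (bars), for P60 pull-down, P60 supernatant, P12 pull-down and P12 supernatant from left to right. The P12 pull-downs run from 2.48 to 24.9 CPM for Abcc8 and from 0 to 12.1 CPM for Kcnj8.

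Across the families at P60, the median log2 fold change of pull-down over supernatant was lowest in the inward rectifiers outside the KATP, GIRK and Kir2 groups (-0.94, 3 tested) and in the electrically silent Kv subunits (-0.53, 9 tested), which change the gating of Kv2 channels. It was highest in Kv4 (0.16, 3 tested), whose channels carry the A-type current. Kcnd3 of this family averaged 92.8 ± 18.6 CPM in P60 pull-downs and 73.8 ± 1.15 CPM in P60 supernatants, with a log2 fold change of 0.34 ± 0.17 (adjusted p = 0.22). Members that reached an unadjusted p under 0.05 without passing the adjusted threshold were all lower in the pull-down: Kcnt2, Kcnj16, Kcnn1, Kcns3, Kcnn2, Kcnj11, Kcnq5, Kcnip3, Kcnip4, Kcna1 and Kcnma1. With the 3 called, 1 of the 77 members was higher and 13 were lower at that p, where 11.9% of all genes were higher and 11.3% lower. Among these, Kcnma1, the pore of the BK channel, averaged 65.0 ± 7.71 CPM in P60 pull-downs and 87.3 ± 6.07 CPM in P60 supernatants (log2 fold change -0.40 ± 0.17, adjusted p = 0.139). Scaled by library size alone, which lowers the log2 fold change of all genes by a median of 0.23, 1 member was higher and 14 were lower, with Kcnj11, Kcnj6 and Kcnq5 among the 14, where 614 of all 14444 genes were higher and 1789 lower.

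At P12, 0 of 79 members passed the test of pull-down against supernatant in edgeR, where 6.28% of all 14852 genes tested were called higher and 1.95% lower. At an unadjusted p under 0.05, 0 were higher and 6 were lower, namely Kcnb2, Kcnj3, Kcnh1, Kcna1, Kcnc2 and Kcnq3, where 10.1% of all genes were higher and 8.17% lower, so that the share of the 79 that was lower is near that of all genes. DESeq2 called 0 members higher and 1 lower (Kcng2), against 1134 higher and 567 lower of all 14852 genes. The median log2 fold change was -0.31 over the members and -0.27 over all genes. Kcnc2, the member called lower at P60, read 25.6, 27.2 and 22.0 CPM in P12 pull-downs against 43.0, 44.5 and 46.4 CPM in P12 supernatants. Its groups did not overlap (log2 fold change -0.85 ± 0.34, adjusted p = 0.168), and the fit with no replicate block called it. Kcna5 read 0, 12.3 and 10.4 CPM in P12 pull-downs against 12.98, 13.3 and 12.6 CPM in P12 supernatants, and Kcnj10 read 19.2, 61.1 and 39.7 CPM in P12 pull-downs against 40.6, 42.7 and 49.96 CPM in P12 supernatants. The SE of a log2 fold change, as a median over the 45 members with a mean of at least 10 CPM, was 0.23 at P60 and 0.38 at P12, and P12 pull-down 1 had the fewest counts.

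**Figure D4:**
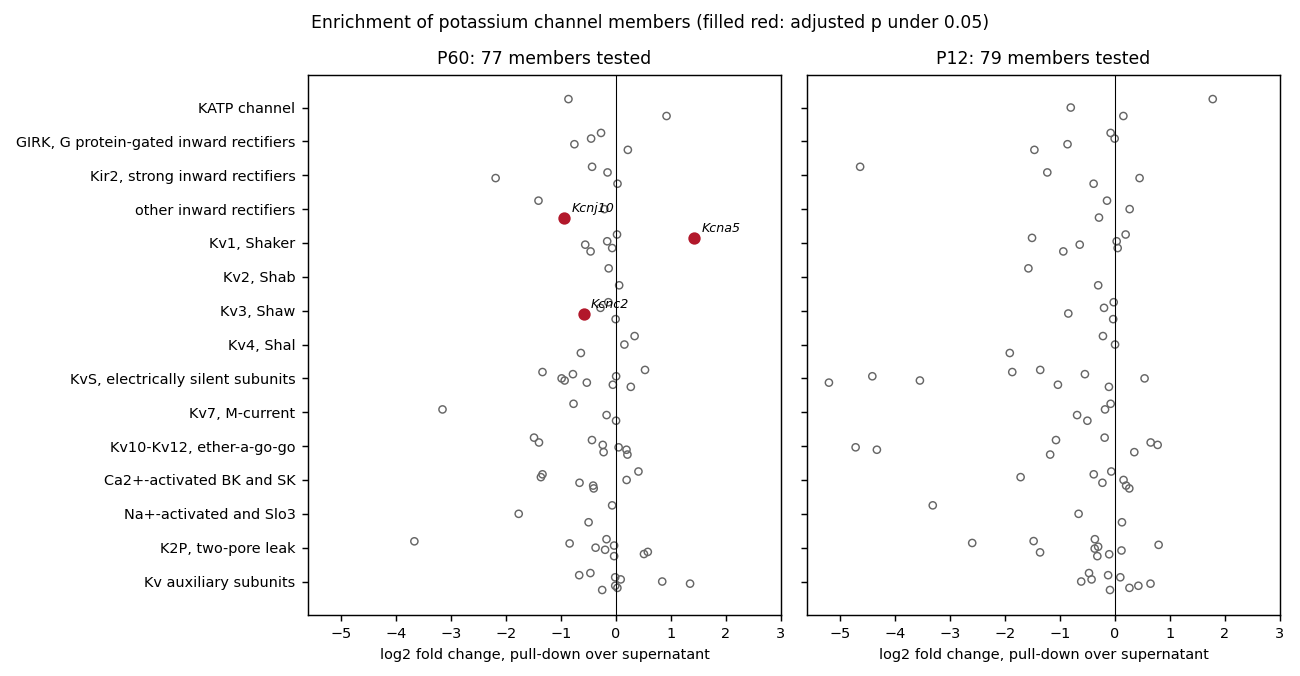
Log2 fold change of pull-down over supernatant of each member tested (points), by channel family, at P60 (left, 77 members) and P12 (right, 79 members); filled red points passed an adjusted p of 0.05. Kcna5 at 1.43 is the only filled point right of 0, Kcnj10 and Kcnc2 are filled left of 0 at P60, and no point is filled at P12.

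The enrichment itself was then compared between the ages, as P60 less P12. Of 80 members tested 0 were called in edgeR, where 0.438% of all genes were called higher and 0.686% lower. An unadjusted p under 0.05 was reached by 3 members that were higher (Kcna5, Kcnj3 and Kcnh1) and 1 that was lower (Kcnma1), where 5.23% of all genes were higher and 5.45% lower. DESeq2 called 1 member higher, Kcnj3, against 223 higher and 226 lower of all 15311 genes. For Kcna5 the difference was 2.68 ± 0.94 (adjusted p = 0.225), and it passed the test with no filter on low counts (2.69, adjusted p = 0.00897). It passed under no other alternative, with adjusted p up to 0.606, and ran from 1.59 to 3.58 without each pair in turn. Kcna5 was at 0 CPM in P12 pull-down 1, which had the fewest counts. The calls of Kcna5, Kcnj10 and Kcnc2 at P60 are therefore not shown to be limited to that age. In the same test all 4 POMC neuron markers were called higher (log2 difference 2.36 to 6.40), and so was the GFP tag (2.08). The part of this stronger enrichment of POMC cell RNA in the differences of Kcna5 and Kcnj3 was not tested.

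Between the ages in the pull-down, 1 of 76 members tested was higher at P60 and 0 were lower, where 1.89% of all genes were called higher and 3.11% lower. At an unadjusted p under 0.05, 9 members were higher and 1 was lower, where 8.06% of all genes were higher and 9.4% lower. DESeq2 called 6 members higher and 0 lower, against 515 higher and 686 lower of all 13570 genes, and the fit over all 12 libraries called 8 higher and 4 lower, against 1292 higher and 1469 lower of all 15311 genes. The member called was Kcna1, with 81.4, 67.9 and 88.2 CPM in P60 pull-downs against 17.7, 48.4 and 10.1 CPM in P12 pull-downs. The groups did not overlap and the log2 fold change was 1.67 ± 0.44 (adjusted p = 0.0388), but the call was lost without any of the P60 pull-downs (adjusted p from 0.0913 to 0.174), without P12 pull-down 1 (1.49, adjusted p = 0.0529) and without P12 pull-down 3 (1.31, adjusted p = 0.0709). Markers of POMC neurons and of glia were read beside Kcna1 in the same pull-downs. All 4 POMC neuron markers were called higher at P60 (log2 fold change 2.57 to 6.27). The GFP tag was called higher too (1.61), with 168 to 241 CPM in P60 pull-downs against 48.3 to 86.2 CPM in P12 pull-downs. Of 8 oligodendrocyte markers, 2 were higher at P60 and 1 was lower, with a sum of 1142 to 1296 CPM in P60 pull-downs against 1061 to 1359 CPM in P12 pull-downs. Of 8 astrocyte markers, 0 were higher and 2 were lower (Gfap and Slc1a2), with a sum of 876 to 1081 CPM in P60 pull-downs against 1374 to 1541 CPM in P12 pull-downs. Of 4 precursor markers 1 was lower (Cspg4), with a sum of 89.97 to 119.9 CPM in P60 pull-downs against 196 to 269 CPM in P12 pull-downs, and of 5 tanycyte and ependymal markers 1 was lower (Vim), with a sum of 78.8 to 102 CPM in P60 pull-downs against 170 to 188 CPM in P12 pull-downs. The part of POMC cell content and of glia in the Kcna1 value was not tested. Just outside the threshold, with an adjusted p of 0.056 each, stood Kcnj3, Kcnab3 and Kcnd3. Kcnj3 averaged 30.3 ± 5.69 CPM in P60 pull-downs and 7.93 ± 4.53 CPM in P12 pull-downs (log2 fold change 1.96 ± 0.56). Without P12 pull-down 1, 4 members were called higher (Kcna5, Kcnab3, Kcnd3 and Kcnj3).

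In the supernatant, the arcuate lysate left after capture, many more members passed the test. Of 80 tested, 26 (32.5%) were higher at P60 and 12 (15.0%) were lower, where 20.9% of all 15251 genes were called higher and 20.8% lower. The median log2 fold change was 0.03 over the members and 0.00 over all genes. With the spread estimated over all 12 libraries in 1 fit, 6 members were higher and 1 was lower, against 303 higher and 293 lower of all 15311 genes. The spread between replicates was smaller here, with a median SE of 0.09 against 0.44 between ages in the pull-down, over the 45 members of at least 10 CPM.

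The Kv1 subunits of axons and their beta subunits were among the members that rose. Kcna1 read 105, 110 and 116 CPM in P60 supernatants against 37.6, 40.8 and 39.9 CPM in P12 supernatants, a log2 fold change of 1.48 ± 0.08 (adjusted p = 1.06e-15). Kcnab3 read 46.6, 48.1 and 40.2 CPM in P60 supernatants against 8.96, 8.61 and 7.12 CPM in P12 supernatants, a log2 fold change of 2.45 ± 0.11 (adjusted p = 5.91e-17). Kcnab2 averaged 213 ± 8.84 CPM in P60 supernatants and 115 ± 8.18 CPM in P12 supernatants, and Kcnab1 averaged 33.0 ± 0.707 CPM in P60 supernatants and 25.8 ± 0.933 CPM in P12 supernatants (SD, n = 3 each). All 3 Kv1 beta genes and Kcna1 and Kcna2 (0.48 ± 0.07) thus rose, while Kcna3, a Kv1 subunit also known from lymphocytes and microglia, fell by 0.62 on the log2 scale, with 21.2, 15.7 and 15.4 CPM in P60 supernatants against 27.8, 23.2 and 28.8 CPM in P12 supernatants. Kcna6 was not called (0.03 ± 0.08, adjusted p = 0.767). The same subunits in the pull-down had log2 fold changes of 1.67 for Kcna1, 1.83 for Kcnab3, 0.64 for Kcnab2 and 0.37 for Kcna2, of which Kcna1 alone was called.

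Of the Kv3 genes, Kcnc1 (0.27) and Kcnc2 (0.81) rose and Kcnc4 fell by 0.39 on the log2 scale. Kcnc2 averaged 78.8 ± 4.76 CPM in P60 supernatants and 44.6 ± 1.68 CPM in P12 supernatants (SD, n = 3 each). Kcnc4 averaged 62.9 ± 3.21 CPM in P60 supernatants and 81.7 ± 2.38 CPM in P12 supernatants (SD, n = 3 each). In the pull-down these genes had log2 fold changes with the same signs (0.29, 1.08 and -0.50 for Kcnc1, Kcnc2 and Kcnc4), none called.

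The largest fold change of a called member in the supernatant was that of Kcng4, an electrically silent subunit. It read 8.40, 7.89 and 9.42 CPM in P60 supernatants against 1.49, 0.870 and 0.830 CPM in P12 supernatants, a log2 fold change of 3.02 ± 0.25 (adjusted p = 2.99e-11). In the pull-downs it read 3.89, 4.81 and 4.02 CPM at P60 against 13.3, 0 and 1.78 CPM at P12, and P12 pull-down 1 alone exceeded all P60 pull-downs. Kcns3, another silent subunit, read 7.17, 10.5 and 7.66 CPM in P60 supernatants against 1.26, 2.73 and 2.84 CPM in P12 supernatants (log2 fold change 1.87 ± 0.24). Kcns2 of the same family fell by 0.52 on the log2 scale, though its groups overlapped.

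Of the inward rectifiers, 7 rose in the supernatant. These were 3 of 4 GIRK subunits (Kcnj9 0.87 ± 0.09, Kcnj3 0.40 ± 0.11 and Kcnj6 0.39 ± 0.09, with Kcnj5 at -0.08 ± 0.16), Kcnj4 (0.96 ± 0.23) and Kcnj2 (0.40 ± 0.15) of the Kir2 family, Kcnj10 (0.44 ± 0.09) and Kcnj11 of the KATP channel. Kcnj11 averaged 19.3 ± 2.01 CPM in P60 supernatants and 12.8 ± 0.980 CPM in P12 supernatants (SD, n = 3 each), a log2 fold change of 0.58 ± 0.12 (adjusted p = 3.19e-04). Its partner Abcc8 averaged 5.92 ± 1.22 CPM in P60 supernatants and 7.37 ± 0.601 CPM in P12 supernatants (SD, n = 3 each), with a log2 fold change of -0.33 ± 0.18 (adjusted p = 0.155). Without P60 supernatant 1 the value for Abcc8 was -0.50 (adjusted p = 0.0497). Beside Kcnj10, all 8 oligodendrocyte markers rose in the supernatant, with a sum of 1936 to 2042 CPM at P60 against 1072 to 1114 CPM at P12, while 3 of 8 astrocyte markers rose and 3 fell. Their part in its value was not tested.

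Of the K2P leak channels, 3 of 10 tested rose and 2 fell. Kcnk13 read 7.63, 11.6 and 8.34 CPM in P60 supernatants against 2.27, 3.94 and 4.45 CPM in P12 supernatants (log2 fold change 1.35 ± 0.22, adjusted p = 7.13e-06), and Kcnk1 and the acid-sensitive channel gene Kcnk3 rose by less (0.52 ± 0.10 and 0.31 ± 0.10). Kcnk2, a leak channel opened by stretch and lipids, fell by 0.30 on the log2 scale, with 56.9 ± 2.04 CPM in P60 supernatants and 69.4 ± 0.431 CPM in P12 supernatants (SD, n = 3 each). Of the exonic length of Kcnk2, 14.4% overlaps another gene. Kcnk10 was the other that fell, with overlapping groups. Of the ether-a-go-go channels, 4 of 8 rose, namely Kcnh3 (1.03 ± 0.32), Kcnh2 (0.51 ± 0.09), Kcnh5 (0.47 ± 0.13) and Kcnh7 (0.29 ± 0.11), and Kcnh8 fell, with 1.79, 1.94 and 2.04 CPM in P60 supernatants against 4.39, 3.07 and 4.45 CPM in P12 supernatants. Kcnh3 lost its call without P60 supernatant 1 (0.84, adjusted p = 0.0756) and without P12 supernatant 2 (0.89, adjusted p = 0.0505).

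The partners of Kv4 channels moved apart. Kcnip1 read 49.9, 55.1 and 55.4 CPM in P60 supernatants against 85.3, 92.3 and 87.5 CPM in P12 supernatants, and fell by 0.73 on the log2 scale (adjusted p = 5.42e-09), while Kcnip4 rose (0.29 ± 0.08). Of the Kv4 pore genes, Kcnd2 fell by 0.57 on the log2 scale, with 45.4 ± 4.29 CPM in P60 supernatants and 66.8 ± 4.80 CPM in P12 supernatants, and Kcnd3 rose (0.41 ± 0.08), with 73.8 ± 1.15 CPM in P60 supernatants and 55.4 ± 1.95 CPM in P12 supernatants (SD, n = 3 each). In the pull-down Kcnd2 had a log2 fold change of -0.40 ± 0.28 and Kcnd3 one of 0.96 ± 0.28, neither called. The remaining members that fell were Kcne1l (-1.18 ± 0.31) and Kcnu1 (-0.93 ± 0.30), both at most 3.71 CPM in the supernatants, Kcnmb4 (-0.29 ± 0.11) and Kcnq3 (-0.26 ± 0.09). Kcnu1, which encodes the Slo3 channel of sperm, lost its call without P60 supernatant 3 (-0.69, adjusted p = 0.0826) and without P12 supernatant 2 (-0.82, adjusted p = 0.0711). Kcnq3 lost its call without P60 supernatant 1 or 2 or P12 supernatant 2 or 3 (adjusted p from 0.0646 to 0.166), and Kcnmb4 without P60 supernatant 3 or P12 supernatant 2 or 3 (adjusted p from 0.0589 to 0.187). Kcnh7 lost its call without P60 supernatant 1 or 2 or P12 supernatant 1 or 2 (adjusted p from 0.0595 to 0.176), Kcnj2 without P60 supernatant 1 or 3 or P12 supernatant 1 or 2 (adjusted p from 0.0519 to 0.0728), Kcnk10 without P60 supernatant 1 or P12 supernatant 1 or 3 (adjusted p from 0.107 to 0.237) and Kcnk3 without P60 supernatant 1 or P12 supernatant 2 (adjusted p = 0.0524 and 0.0702). The other 30 members called in the supernatant kept their calls without any 1 library.

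**Figure D5:**
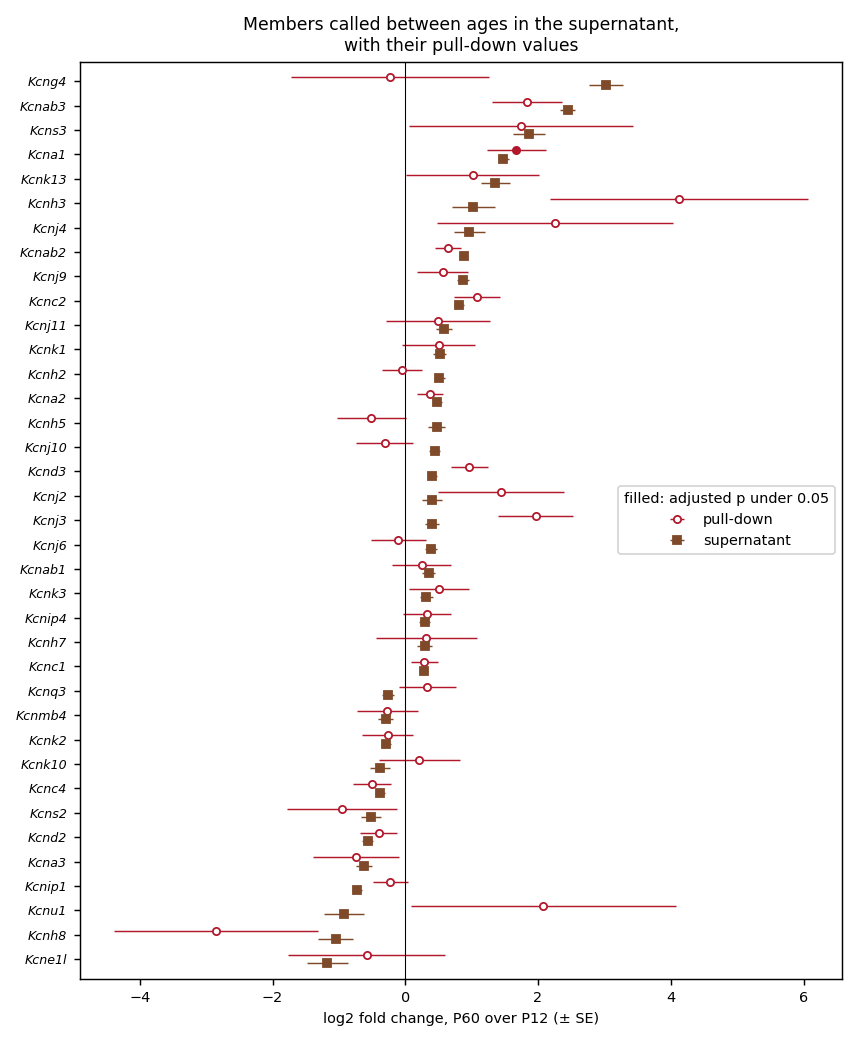
Log2 fold change of P60 over P12 (± SE) of 37 of the 38 members called in the supernatant (squares), with their values in the pull-down (circles, filled where adjusted p was under 0.05). The supernatant values run from 3.02 for Kcng4 to -1.18 for Kcne1l, and the error bars of the pull-down are longer throughout.

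All 38 were also tested in the pull-downs. These share no library with the supernatants but, by the study's pairing, come from the same lysates. The age comparisons of the fractions are thus not independent. Of the 26 that were higher at P60 in the supernatant, 21 (80.8%) had a positive log2 fold change in the pull-down, against 76.6% of all genes so called, and of the 12 that were lower 9 (75.0%) had a negative one, against 79.5% of all genes so called. The members' shares are near those of all genes. The members with opposite signs were Kcng4, Kcnh2, Kcnh5, Kcnj10 and Kcnj6 among the first and Kcnk10, Kcnq3 and Kcnu1 among the second.

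Of 25 genes for proteins that work beside potassium channels, none of them members, 22 were tested in the P60 pull-down against its supernatant. Of these, 1 was higher and 3 were lower, where 7.11% of all genes were called higher and 4.53% lower. Hcn3, a channel of the pacemaker current, was higher, with 22.6 to 36.1 CPM in P60 pull-downs against 14.8 to 16.4 CPM in P60 supernatants (log2 fold change 0.83 ± 0.28, adjusted p = 0.0436). Lower were Dpp10, a partner of Kv4 channels (-0.67 ± 0.18), Rgs7bp, which holds a GIRK-regulating complex at the membrane (-0.49 ± 0.15), and Vapb, an endoplasmic reticulum protein that binds Kv2 channels (-0.43 ± 0.14). At P12, Hcn4 was higher, with 39.8 to 62.1 CPM in pull-downs against 20.5 to 24.2 CPM in supernatants (log2 fold change 1.18 ± 0.33, adjusted p = 0.038), and Akap5, an anchor of kinases at Kv7 channels, was lower (-0.67 ± 0.19, adjusted p = 0.0364), of 24 tested. Over all genes at P12, 6.28% were called higher and 1.95% lower. Between ages in the pull-down, 1 partner gene was higher (Hcn2, 1.00 ± 0.24) and 1 lower (Akap5, -1.22 ± 0.30) of 23 tested. There 1.89% of all genes were called higher and 3.11% lower. In the supernatant, 6 were higher and 7 lower of 24 tested, where 20.9% of all genes were called higher and 20.8% lower.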

How the data were processed

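Pull-down and supernatant RNA of 12 libraries was depleted of ribosomal RNA, made into stranded total RNA libraries and sequenced single-end; the labels also name polyA RNA, which the study's methods do not mention. Per the labels and the methods, the authors used TopHat2 2.0.13 with Bowtie2 2.2.1 for alignment to the mm10 genome and HTSeq for counting. Whether HTSeq counted by strand is not given in the sources used here, so reads of overlapping and antisense genes cannot be told apart, and 6 members share over 10% of their exonic length with another gene. The deposited values are raw counts per gene, without normalization, and 12 of 12 sample files equalled their column of the whole table. No 2 libraries of a group were duplicates.

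Every comparison used edgeR 4.0.16 in R 4.3.3 over all genes passing filterByExpr (TMM scaling, quasi-likelihood test, Benjamini-Hochberg adjusted p, threshold 0.05). Fractions were compared within each age over 6 libraries with the replicate number as a block, since the study's model has paired samples. The residuals of a pull-down and its same-numbered supernatant around their group means had correlations of 0.0206 to 0.0556 at P60 and 0.0261 to 0.0559 at P12, so the pairing rests on that model. The difference of enrichment used all 12 libraries, and ages, being different mice, were compared over 6 libraries of 1 fraction with no block. The study calls the replicates biological, but which mice entered each is not stated, so p-values measure the spread between these samples. SE is the absolute log2 fold change over the square root of F. Alternatives were scaling by library size alone, DESeq2 size factors, DESeq2 1.42.0, no filter, removal of the trend on exonic length, the other use of the block, 1 fit over all 12 libraries, and leaving out replicates. The fits were tested on simulated data with known changes. Of changes of 1 on the log2 scale, 52 to 61% were recovered between fractions or ages, and 10% in the difference of enrichment. Of changes of 2, 100% and 90% were recovered. The simulation gave every library the same spread, while the real spread was smaller in supernatants than in pull-downs.

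A count of 0 allows up to 3 counts, 0.0804 to 0.532 CPM by library, for counting error only. Exonic lengths and positions come from the GENCODE annotation of GRCm38, found for 98.3% of genes, and 69 of 95 members matched the RefSeq promoter table. Members, families and partner genes were chosen with earlier results of these data known. Named were the KATP, GIRK and M-current subunits, the glial and vascular members Kcnj10, Kcnj16 and Kcnj8, the 5 members of highest CPM per kb in each group, called partner genes (some members by this rule are not reported here), and in each comparison up to 10 called members in each direction with every pair the same way or no overlap between ages; others were named after their values were seen.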

Additional observations from a re-analysis of the deposited data

How the results depend on the processing

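Directions of the member calls held under every alternative, while the counts depended on the spread that was assumed. With all 12 libraries in 1 fit, 0 members were higher and 0 lower at P60, 3 were lower at P12, 8 were higher and 4 lower between ages in the pull-down, and 6 were higher and 1 lower in the supernatant. The counts over all genes moved with that fit too, to 610 higher and 241 lower at P60, 1140 and 657 at P12, 1292 and 1469 between pull-downs and 303 and 293 between supernatants. Of the 38 calls in the supernatant, 7 held under every alternative (Kcna1, Kcna2, Kcnab2, Kcnab3, Kcnc2 and Kcnip1 among them) and 23 were lost in that fit alone; the cause was not tested. Scaling by library size alone gave 14 members lower at P60, 5 lower at P12 and 5 higher between pull-downs, and moved the median of all genes by -0.225, -0.348 and 0.173, with 1789, 1387 and 263 of all genes lower and 614, 534 and 445 higher. Without a filter the counts were 4 lower at P60, 1 higher in the difference of enrichment and 5 higher between pull-downs. Over all genes these counts were 719, 161 and 445. DESeq2 gave 1 lower at P12, 1 higher in the difference and 6 higher between pull-downs, against 567, 223 and 515 of all genes. Removing the length trend gave 2 higher between pull-downs, against 178 of all genes. With no replicate block, 1 member was lower at P12, against 472 of all genes. At P60, 1 was higher and 2 lower, against 895 and 486 of all genes. With the replicate block between ages, 2 were higher in the pull-down, against 252 of all genes. In the supernatant 26 were higher and 13 lower with that block, against 3295 and 3279 of all genes. Leaving out replicates gave 1 to 2 higher and 1 to 4 lower at P60, against 563 to 1154 and 275 to 683 of all genes. It gave 0 to 1 higher in the difference, against 22 to 151 of all genes. Between pull-downs 0 to 4 were higher, against 86 to 353 of all genes. In the supernatant 22 to 26 were higher and 9 to 13 lower, against 2702 to 2957 and 2698 to 2871 of all genes.

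Signs turned only for subunits with no call. At P60, Kcnj3 was -0.007 by library size. At P12, Abcc8 was -0.20 by library size; Kcnj6 (-0.005) was 0.031 with DESeq2 size factors, 0.032 with DESeq2, 0.048 with no block and 0.015 with all 12 libraries; Kcnj9 (-0.078) was 0.057 without the length trend and 0.031 with no block. Between pull-downs, Kcnj5 (0.003) was -0.069 with the block and -0.027 with all 12 libraries, and Kcnj6 (-0.10) was 0.069 by library size and 0.06 without the length trend. Leaving out replicates gave, at P60, -0.43 to 0.26 for Kcnq3; at P12, -0.68 to 0.95 for Abcc8, -0.23 to 0.20 for Kcnj6, -0.96 to 4.01 for Kcnj8, -0.43 to 0.15 for Kcnj9 and -0.33 to 0.17 for Kcnq5; between pull-downs, -0.40 to 1.16 for Abcc8, -0.33 to 0.71 for Kcnj5 and -0.26 to 0.25 for Kcnj6; and between supernatants, -0.23 to 0.014 for Kcnj5 and -0.27 to 0.56 for Kcnj8.

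With 3 replicates a group, the median SE was 0.38 at P12 and 0.44 between pull-downs. Log2 fold changes well above that size could go uncalled in the pull-down. Kcnj3, for instance, was not called at -1.47 at P12 or at 1.96 between pull-downs. A missing call there does not exclude a difference of such a size.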
